A study of Mus musculus with 10 samples.

Results

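The enzymes that make serine from glucose and pass its carbon to the folate and methionine cycles were examined in the lactating mammary glands of QSi5 and CBA mice. The set held 9 genes, namely Phgdh, Psat1, Psph, Shmt1, Shmt2, Mthfd1, Mthfd2, Mtr and Slc1a4, and 8 of them had at least 1 probe set that the platform annotation gives to that gene alone, out of 12393 such genes on the arrays. These 8 genes were covered by 23 probe sets. All of these are described, whatever their values, and Mtr had 0. The set was chosen by its members' roles and with the strain differences of these same arrays already known, and in particular the large value of 1 Phgdh probe set, so that the strain differences of the members are given below as a description, without a test.

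The strains were QSi5, a fecund line of Quackenbush-Swiss origin, and CBA (CBA/CaH), which was not selected for reproduction, and both are inbred. Glands of 5 mice of each strain were taken in their first lactation, at lactation day 9, when weaning was forced, and each mouse was hybridised to 1 Affymetrix array. The methods name the right inguinal gland and the MOE430A 2.0 chip for all mice, but the series record has the fourth inguinal gland and the sample records give different chips. By those records, which are followed here, 3 mice of each strain were measured on the MOE430 2.0 chip (CBA mice 1, 4 and 5 and QSi5 mice 3, 4 and 5) and 2 on the smaller MOE430A 2.0 chip (CBA mice 2 and 3 and QSi5 mice 1 and 2), and every value by chip type below rests on this. Values are log2 intensities as deposited, and a difference is QSi5 minus CBA on that scale with the standard error (SE) from limma. A probe set was tested where the mean of at least 1 strain was above 20 on the unlogged scale, and it is called where the Benjamini-Hochberg (BH) adjusted p was under 0.05. Whole glands hold several cell types, so fewer cells of a type and less RNA per cell cannot be told apart.

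Serine is made from the glycolytic intermediate phosphoglycerate in a short pathway of an oxidation (Phgdh), a transamination (Psat1) and a dephosphorylation (Psph). Serine hydroxymethyltransferases then split it into glycine and a carbon unit carried by folate, which is used to build purines and thymidylate and to regenerate methionine. A lactating gland takes up amino acids and glucose in large amounts to make milk protein, lactose and fat, and serine is a component of the phosphorylated caseins. Several genes of this pathway are known targets of Atf4, a transcription factor of the response to amino acid shortage.

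The DNA around the start sites is shown for Phgdh, whose probe set 1454714_x_at had the largest strain difference of the members' probe sets. Its other probe sets had far smaller differences, given below. Also shown are Slc1a4, the member whose window holds the Atf4-type motif, and Asns and Trib3, known Atf4 targets that are no members. The windows are RefSeq sequence of the GRCm38.p6 build, from 250 bases before to 50 bases after the start site, and belong to the C57BL/6J reference, not to either strain. The motif searched was TGATGNAA, or TTNCATCA on the other strand, and it is in capitals where present.

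Phgdh, chr3:98339920-98340219, minus strand: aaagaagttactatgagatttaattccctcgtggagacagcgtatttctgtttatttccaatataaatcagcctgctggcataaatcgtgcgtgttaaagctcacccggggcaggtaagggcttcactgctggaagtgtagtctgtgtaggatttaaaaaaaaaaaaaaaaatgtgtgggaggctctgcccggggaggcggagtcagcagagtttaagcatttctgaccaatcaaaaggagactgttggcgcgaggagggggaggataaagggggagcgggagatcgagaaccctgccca
Slc1a4, chr11:20332664-20332963, minus strand: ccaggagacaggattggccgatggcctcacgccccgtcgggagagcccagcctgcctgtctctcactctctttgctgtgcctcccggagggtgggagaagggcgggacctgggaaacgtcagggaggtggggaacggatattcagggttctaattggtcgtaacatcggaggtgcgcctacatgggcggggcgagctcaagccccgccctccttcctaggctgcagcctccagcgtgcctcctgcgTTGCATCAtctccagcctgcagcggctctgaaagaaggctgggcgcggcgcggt
Asns, chr6:7693160-7693459, minus strand: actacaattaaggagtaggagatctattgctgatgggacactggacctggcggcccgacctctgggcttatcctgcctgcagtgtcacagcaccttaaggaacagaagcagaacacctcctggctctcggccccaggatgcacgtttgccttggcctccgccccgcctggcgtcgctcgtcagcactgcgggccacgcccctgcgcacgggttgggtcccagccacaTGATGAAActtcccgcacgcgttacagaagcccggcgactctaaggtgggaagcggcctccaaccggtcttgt
Trib3, chr2:152344011-152344310, minus strand: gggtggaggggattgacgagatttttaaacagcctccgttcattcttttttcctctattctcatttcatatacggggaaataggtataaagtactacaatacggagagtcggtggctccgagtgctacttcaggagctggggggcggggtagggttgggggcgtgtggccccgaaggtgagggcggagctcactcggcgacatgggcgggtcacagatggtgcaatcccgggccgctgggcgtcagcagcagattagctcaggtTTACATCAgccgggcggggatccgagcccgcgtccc

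The motif was present in 1304 of 32851 windows of this length (3.97%). All 9 members had a window, and 1 of them, Slc1a4, held the motif, as TTGCATCA beginning 4 bases before the start site. In a list of genes of the amino acid response, written from general knowledge, 9 of 25 genes with a window held it, among them Asns (TGATGAAA) and Trib3 (TTACATCA). A match to these letters describes the sequence and is no measure of binding.

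Phgdh, which commits phosphoglycerate to serine synthesis, had 4 probe sets that gave differing pictures of the strains. On probe set 1454714_x_at the level was 8.63, 9.23, 9.57, 9.05 and 9.57 in CBA mice 1 to 5 and 5.31, 5.66, 5.61, 5.48 and 5.76 in QSi5 mice 1 to 5. Every CBA mouse lay above every QSi5 mouse, by a margin far wider than the spread within either strain. The means were 9.21 ± 0.39 (SD, n = 5) in CBA and 5.56 ± 0.17 (SD, n = 5) in QSi5, a difference of -3.64 (SE 0.18), or 12.5-fold. This was the 1 called probe set among the 17 of the members that were tested, beside 2.94% called over all 11412 tested probe sets, and nothing is read from that count since the set was selected on such differences. The difference was -3.46 among the mice on the MOE430 2.0 chip and -3.91 among those on the MOE430A 2.0 chip.

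The Phgdh probe set brightest on the mean of all 10 mice, though not in CBA mice alone, was 1426658_x_at. It read 7.74, 7.50, 7.99, 8.03 and 7.92 in CBA mice 1 to 5 and 7.43, 7.39, 7.47, 7.68 and 7.60 in QSi5 mice 1 to 5. The strains overlapped, and the difference was -0.32 (SE 0.12), or 1.25-fold. On 1437621_x_at the values were 6.85, 7.89, 8.25, 7.40 and 7.93 in CBA mice and 7.46, 7.30, 7.26, 7.14 and 7.59 in QSi5 mice, in the same order. Here CBA mouse 1 was the lowest of all 10 mice and CBA mouse 3 the highest, and the difference was -0.31 (SE 0.22). The fourth, 1456584_x_at, had 6.48, 7.45, 7.50, 6.93 and 7.28 in CBA mice and 7.08, 6.87, 7.04, 6.74 and 6.90 in QSi5 mice, which differ by -0.20 (SE 0.18) on average. Both of these differences were close to 0 on the MOE430 2.0 chip, at -0.07 and -0.01, and larger on the MOE430A 2.0 chip, at -0.69 and -0.50. Without CBA mouse 1 they were -0.52 and -0.36.

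All 4 Phgdh probe sets carry the suffix _x_at, which marks probes that may also bind other transcripts, and 2 further probe sets, annotated to Phgdh together with the transcribed pseudogenes Gm8096 or Gm6756, were not used. RefSeq also lists the pseudogene Phgdh-ps1. The part of these copies in the differences was not tested.

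**Figure D1:**
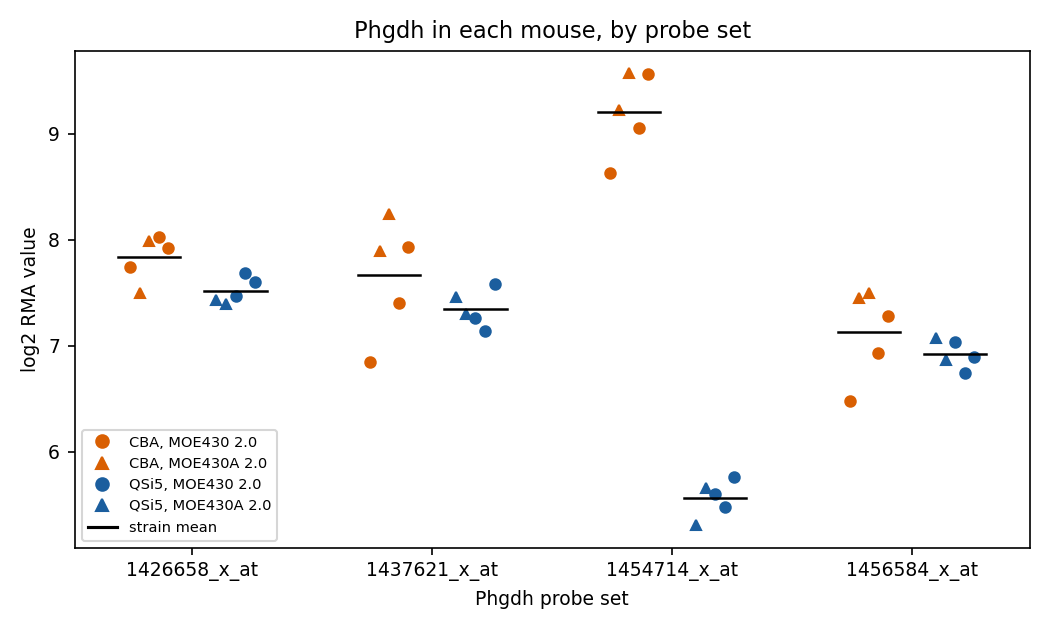
Log2 RMA value (vertical axis) of the 4 Phgdh probe sets (horizontal axis) in each of 5 CBA (orange) and 5 QSi5 (blue) mice; circles are MOE430 2.0 arrays, triangles MOE430A 2.0 arrays and lines strain means. The strains are far apart on 1454714_x_at alone, at means of 9.21 and 5.56, and overlap on the other 3 probe sets.

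Psat1, the transaminase that follows Phgdh, varied more between mice of a strain than most tested probe sets did, in part through 1 mouse. Its brighter probe set, 1454607_s_at, read 3.55, 5.28, 5.77, 5.12 and 4.99 in CBA mice 1 to 5 and 5.75, 4.89, 5.20, 5.02 and 5.66 in QSi5 mice 1 to 5. CBA mouse 1 lay far below the other 9 mice, which overlapped. The difference was 0.36 (SE 0.34), and it was 0.01 without CBA mouse 1 and -0.21 among the mice on the MOE430A 2.0 chip. On 1451064_a_at the values were 3.80, 4.03, 4.11, 5.54 and 4.70 in CBA mice and 5.47, 4.38, 5.48, 5.06 and 5.82 in QSi5 mice. The lowest 3 mice were CBA, but CBA mouse 4 stood among the highest, and the difference was 0.81 (SE 0.33), or 1.75-fold, with 0.77 on the MOE430 2.0 chip and 0.86 on the MOE430A 2.0 chip. Its pooled within-strain SD of 0.63 was larger than that of 97.5% of the tested probe sets, and that of 1454607_s_at, at 0.65, was larger than 97.7%. Without CBA mouse 1 the SD of 1454607_s_at was 0.36, larger than 85.0% of the tested probe sets, and that of 1451064_a_at was still 0.63.

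Psph, the phosphatase that releases serine in the last step, had 1 probe set, 1415673_at. It read 4.38, 4.29, 4.73, 5.03 and 4.78 in CBA mice 1 to 5 and 5.10, 4.67, 4.84, 4.72 and 5.08 in QSi5 mice 1 to 5. The strains overlapped, with CBA mice 1 and 2 the lowest, and the difference was 0.24 (SE 0.15). By sign alone, the 4 Phgdh differences were negative and those of Psat1 and Psph positive. Apart from Phgdh 1454714_x_at none of these was called, and Psat1 1454607_s_at was at -0.21 on the MOE430A 2.0 chip. No contrast between the 3 genes of the serine pathway is read from these signs.

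The hydroxymethyltransferases, which convert serine to glycine in the cytosol (Shmt1) and in mitochondria (Shmt2), had differences between -0.09 and 0.30. Shmt1 read 7.65, 7.67, 7.64, 7.59 and 7.41 in CBA mice 1 to 5 and 7.96, 8.23, 7.60, 7.95 and 7.44 in QSi5 mice 1 to 5 on 1425177_at. QSi5 mice 1, 2 and 4 were above every CBA mouse, QSi5 mice 3 and 5 were not, and the difference was 0.24 (SE 0.14). On 1425179_at the difference was -0.09 (SE 0.13), with CBA mice between 4.53 and 4.63 and QSi5 mice spread from 4.07 to 4.77. Shmt2 differed by 0.14 (SE 0.10) on 1455084_x_at, by -0.02 (SE 0.10) on 1434204_x_at and by 0.30 (SE 0.11) on 1455985_x_at. On the last of these the CBA mice read 4.32, 4.28, 4.21, 4.53 and 4.67 and the QSi5 mice 4.76, 4.51, 4.77, 4.63 and 4.84, so that CBA mice 4 and 5 lay within the range of the QSi5 mice.

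The tested probe sets of the folate enzymes had differences between -0.06 and 0.03. Mthfd1, the cytosolic enzyme that interconverts the carbon-carrying forms of folate, read 6.82, 7.03, 6.98, 7.10 and 7.37 in CBA mice 1 to 5 and 6.97, 6.90, 7.04, 7.08 and 7.16 in QSi5 mice 1 to 5 on 1415916_a_at, a difference of -0.03 (SE 0.11), and it differed by -0.06 (SE 0.13) on 1415917_at. Mthfd2, its mitochondrial relative, read 5.13, 4.82, 5.08, 5.50 and 5.46 in CBA mice and 4.88, 4.98, 5.45, 5.48 and 5.33 in QSi5 mice on 1419253_at, a difference of 0.03 (SE 0.16). The QSi5 mice all fell inside the range of the CBA mice on this Mthfd2 probe set and on 1415916_a_at of Mthfd1.

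Slc1a4, a carrier that exchanges serine, alanine and other small neutral amino acids across the cell membrane, was measured above the filter by 2 probe sets. On 1456003_a_at the values were 5.87, 6.82, 6.88, 6.13 and 6.75 in CBA mice 1 to 5 and 6.86, 6.62, 6.48, 6.34 and 6.81 in QSi5 mice 1 to 5. CBA mice 1 and 4 were the lowest, and the difference of 0.13 (SE 0.20) was -0.02 without CBA mouse 1. On 1423549_at the values were 5.46, 5.21, 5.21, 5.66 and 5.59 in CBA mice and 5.64, 5.29, 5.96, 5.66 and 5.97 in QSi5 mice. The strains overlapped and differed by 0.28 (SE 0.15).

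Mtr, methionine synthase, passes the folate-bound carbon to homocysteine and is not analysed here. The 6 probe sets that did not pass the filter were 1422198_a_at and 1425178_s_at of Shmt1, 1426423_at of Shmt2, 1436704_x_at of Mthfd1, 1419254_at of Mthfd2 and 1423550_at of Slc1a4. Their strain means lay between 2.92 and 4.11, and the strains overlapped on each. The 17 tested probe sets, by contrast, covered all 8 genes, with 8 negative and 9 positive differences and a median of 0.03. The median of all 11412 tested probe sets was 0.00. Of the 17, 1 was called and 1 had strains that did not overlap, the same Phgdh probe set in both cases. Over all tested probe sets 5.14% had strains that did not overlap.

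**Figure D2:**
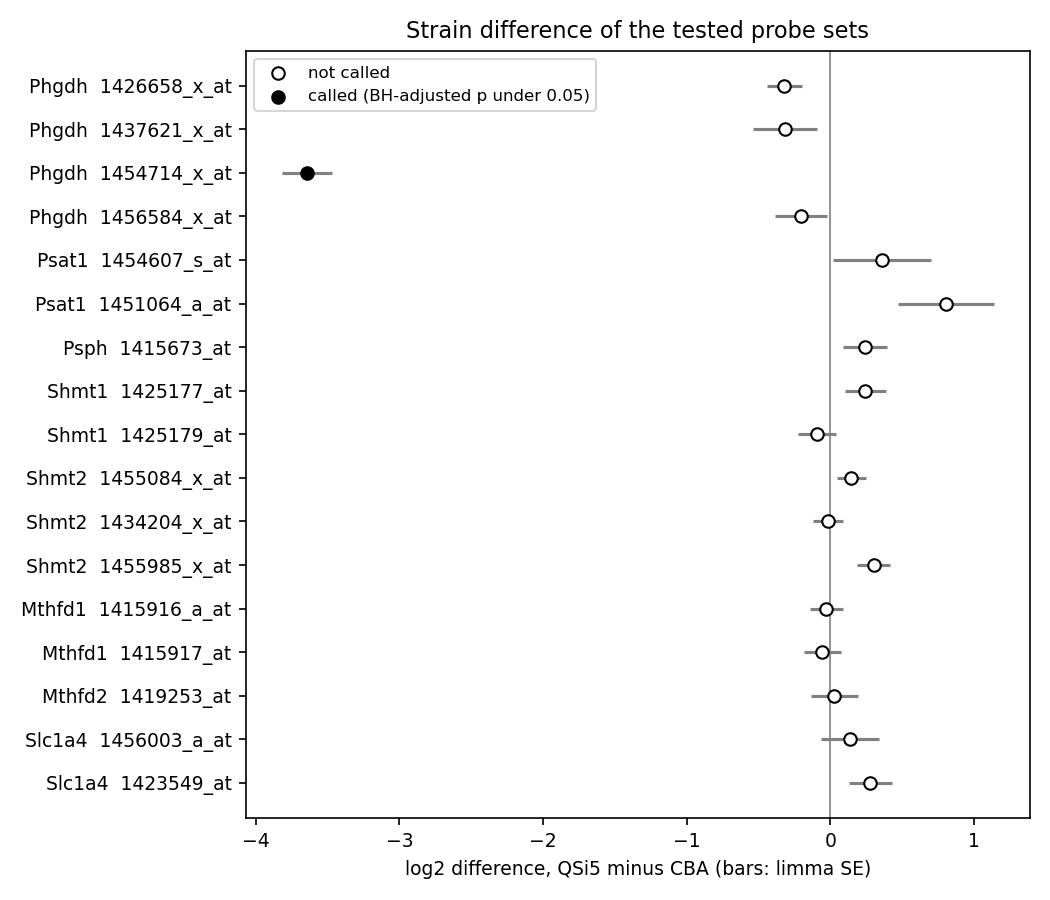
Difference between the strains (horizontal axis, log2, QSi5 minus CBA) for each of the 17 tested probe sets (vertical axis); points are estimates and bars the SE from limma, with the called probe set filled. Phgdh 1454714_x_at stands at -3.64, and the other 16 lie between -0.32 and 0.81.

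**Figure D3:**
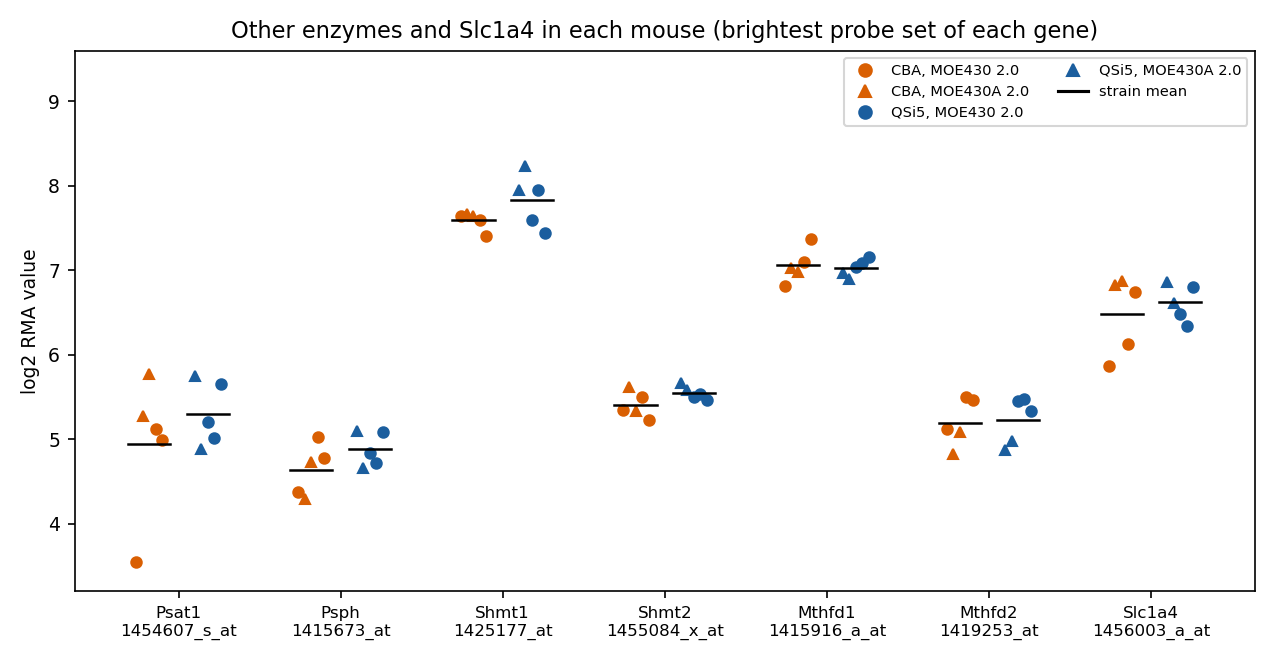
Log2 RMA value (vertical axis) of the brightest probe set of the 7 measured genes other than Phgdh (horizontal axis) in each of 5 CBA (orange) and 5 QSi5 (blue) mice; circles are MOE430 2.0 arrays, triangles MOE430A 2.0 arrays and lines strain means. The strains overlap for every gene, and CBA mouse 1 stands apart on Psat1 at 3.55; heights of different probe sets are not comparable.

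The chip type, which was not used to choose the genes, was tested with strain in the fit. No member probe set was called (0 of 17, by limma), beside 0.526% of all tested probe sets. An unadjusted limma p under 0.05 was found for 3 of the 17 and for 1958 of all 11412 tested probe sets, a like share. Mthfd2 1419253_at was higher on the MOE430 2.0 chip by 0.45 (SE 0.11, adjusted p = 0.0877), and in each strain the 2 mice on the MOE430A 2.0 chip were the lowest. The probe sets of Slc1a4 had opposite differences, with 0.38 (SE 0.11, adjusted p = 0.140) on 1423549_at and -0.40 (SE 0.17, adjusted p = 0.275) on 1456003_a_at. Those of Psat1 were likewise opposed, at 0.57 (SE 0.31, adjusted p = 0.373) on 1451064_a_at and -0.50 (SE 0.33, adjusted p = 0.468) on 1454607_s_at. With array weights, which give noisier arrays less say, Mthfd2 1419253_at was called, at 0.51 (adjusted p = 0.0382).

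Probe sets of 1 gene did not always vary together from mouse to mouse. After each strain was centred on its mean, 13 pairs of probe sets of the same gene were compared over the 10 mice, and 0 passed the BH threshold (exact permutation test within strains, two-sided). The highest r was 0.93 between Phgdh 1437621_x_at and 1456584_x_at (p = 0.00646 and BH-adjusted p = 0.0840 from the exact permutation test, rho = 0.88 with p = 0.0206). It was 0.74 without CBA mice 1 and 3 and 0.88 with chip types centred as well. Probe set 1454714_x_at, with the large strain difference, varied within strains like 1437621_x_at, with r = 0.86 (exact permutation p = 0.0136, adjusted p = 0.0884, rho = 0.82 with p = 0.0247), which was 0.55 without CBA mice 1 and 3 and 0.89 with chip types centred. The brightest Phgdh probe set, 1426658_x_at, had r of 0.27 with 1454714_x_at, 0.08 with 1437621_x_at and -0.13 with 1456584_x_at (exact permutation p = 0.586, 0.856 and 0.755, rho = 0.18, -0.01 and -0.14 with p = 0.674, 1 and 0.746, adjusted p = 0.762, 0.856 and 0.856). Without CBA mice 2 and 4 these r were 0.57, 0.52 and 0.38. The pair of Psat1 probe sets had r = 0.42 (exact permutation p = 0.304, adjusted p = 0.571, rho = 0.38 with p = 0.314), which was 0.48 without CBA mice 1 and 3 and 0.91 once the chip types were centred too. Of the 13 r, 9 were positive and 4 negative. The Slc1a4 pair had r = -0.29 (exact permutation p = 0.388, adjusted p = 0.571), and 0.52 with chip types centred. Shmt2 1455084_x_at had r = -0.51 with 1434204_x_at (exact permutation p = 0.197, adjusted p = 0.512). With 1455985_x_at it had -0.37 (exact permutation p = 0.395, adjusted p = 0.571).

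Between genes, 28 pairs of the 8 measured members were compared in the same way on the brightest probe set of each (for Phgdh 1426658_x_at), and 0 passed, while 4 had an unadjusted exact permutation p under 0.05. The smallest p that the 14400 permutations allow is 6.94e-05. Psat1 and Slc1a4 had the highest r, at 0.81 (exact permutation p = 0.00667, adjusted p = 0.101, rho = 0.72 with p = 0.0115), and both probe sets were lowest in CBA mouse 1. Without CBA mice 1 and 3 r was 0.52, and with chip types centred it was 0.73. Phgdh and Mthfd2 had r = 0.74 (exact permutation p = 0.0218, adjusted p = 0.203, rho = 0.79 with p = 0.0192), with 0.56 when CBA mice 2 and 4 were left out and 0.75 with chip types centred. Shmt1 ran opposite to Mthfd1, with r = -0.61 (exact permutation p = 0.00722, adjusted p = 0.101, rho = -0.58 with p = 0.0754), -0.55 without QSi5 mice 2 and 5 and -0.48 with chip types centred. Shmt1 and Shmt2 had r = 0.50 (exact permutation p = 0.0440, adjusted p = 0.308, rho = 0.64 with p = 0.0169), 0.57 without QSi5 mice 2 and 5 and 0.27 with chip types centred. Of all 28 pairs, 15 had a positive and 13 a negative r. Each r belongs to the probe sets used and not to the genes as a whole.

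**Figure D4:**
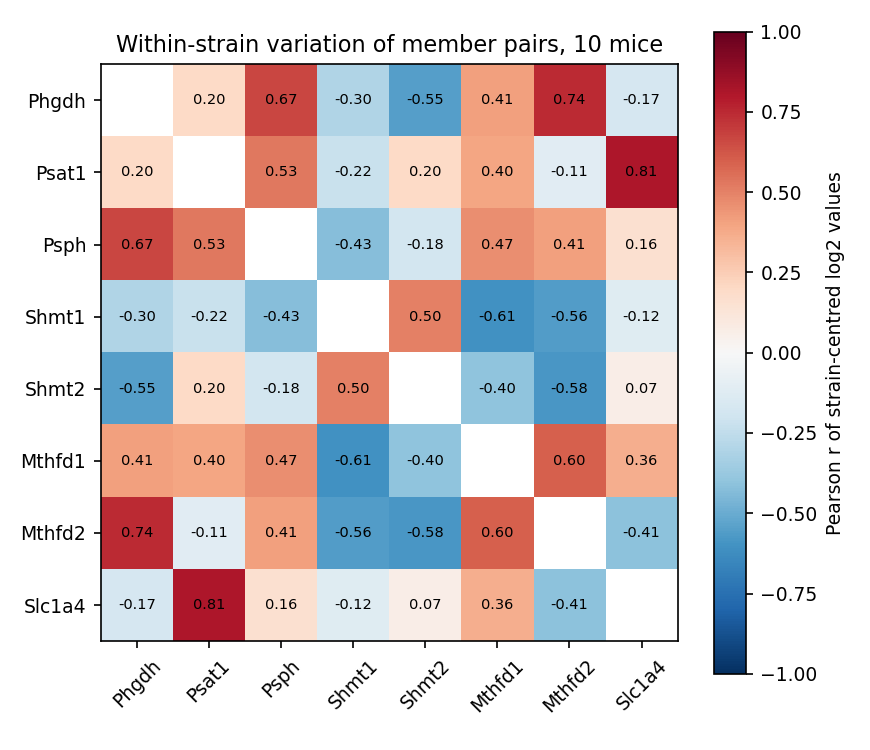
Pearson r between each pair of measured genes (rows and columns) over 10 mice, on the brightest probe set of each gene after centring each strain on its mean; red is positive and blue negative. The highest value is 0.81 for Psat1 and Slc1a4 and the lowest -0.61 for Shmt1 and Mthfd1, and none of the 28 passed the BH threshold.

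The genes whose within-strain pattern was most like that of Psat1 (1454607_s_at), out of 7360, were Notch3, a receptor of the Notch pathway (r = 0.97), Mki67, a marker of dividing cells (r = 0.97), Frmd4b (r = 0.97), the glucose carrier Slc2a1 (r = 0.96) and Fasn, the fatty acid synthase (r = 0.96). Both values of a pair come from the same array in each of the 10 mice, and CBA mouse 1 weighs in each r, since r was 0.90, 0.91, 0.90, 0.90 and 0.84 without it. For Phgdh (1426658_x_at) they were Phpt1 (0.92), Rnf181 (0.91), Tspyl4 (0.91), Bnip1 (0.90) and Nop10 (0.90), a ribonucleoprotein component that guides RNA modification. Each list belongs to 1 probe set and not to the gene as a whole. Within strains, Phgdh 1426658_x_at had r of 0.27, 0.08 and -0.13 with the other Phgdh probe sets. The pair of Psat1 probe sets had r = 0.42. An r over 0.8 was found for 171 of the 7360 genes with Psat1 1454607_s_at and for 75 with Phgdh 1426658_x_at. The highest of so many r are large by selection, and no reference for them was computed. These 10 genes are given for their likeness alone.

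The other genes of the surrounding pathways were taken from 6 lists, each gene on its brightest tested probe set. The lists were written from general knowledge but with earlier results of these data known, so their counts and p-values are no independent test. Of 119 listed genes 99 had a probe set and 76 were tested, of which 0 were called higher in QSi5 mice, 5 were called lower and 71 did not pass, beside the 2.94% of all tested probe sets called in either direction. Of all 11412 tested probe sets, 164 were called higher and 172 lower in QSi5 mice. These are probe sets, while the lists count genes on their brightest one. The median difference of the 76 was -0.03, against 0.00 over all tested probe sets. By list, 0 of 13 tested genes of serine and glycine use were called, 1 of 7 in the folate cycle, 1 of 13 in the methionine cycle, 2 of 24 in the amino acid response, 1 of 13 among carriers of neutral amino acids and 1 of 9 in lower glycolysis, and Slc7a5 stands in 2 of the lists. Counted on any tested probe set of a gene, 7 genes were called, with Sfxn1 and Sptlc1 added to the 5. The matching share over all genes was not computed, and Sfxn1 and Sptlc1 were chosen for description after their values were seen.

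Mtap, which salvages methionine from the by-product of polyamine synthesis, read 6.09, 6.46, 6.48, 6.39 and 6.10 in CBA mice 1 to 5 and 5.55, 5.39, 5.60, 5.34 and 5.40 in QSi5 mice 1 to 5. The strains did not overlap, and Mtap fell by 0.85 (SE 0.11, limma adjusted p = 0.000934), with -0.75 on the MOE430 2.0 chip and -1.004 on the MOE430A 2.0 chip. Its other tested probe set had -0.29 (SE 0.16, limma adjusted p = 0.442).

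Trib3, a pseudokinase that Atf4 induces when amino acids are short, read 7.60, 7.96, 7.67, 7.65 and 7.36 in CBA mice and 6.29, 7.01, 6.74, 6.91 and 6.94 in QSi5 mice. All QSi5 mice were below all CBA mice. Trib3 fell by 0.87 (SE 0.15, limma adjusted p = 0.00770), with -0.68 on the MOE430 2.0 chip and -1.16 on the MOE430A 2.0 chip, and its other probe set fell by 0.75 (SE 0.12, limma adjusted p = 0.00361). Atf4 itself had a difference of -0.33 (SE 0.23, limma adjusted p = 0.559) on its brightest probe set. Its others had -0.60 (SE 0.27, limma adjusted p = 0.325) and 0.01 (SE 0.09, limma adjusted p = 0.973). Asns, which makes asparagine and whose window with the motif is shown above, had 0.02 (SE 0.19, limma adjusted p = 0.978) on its brightest probe set. Its other had 0.05 (SE 0.17, limma adjusted p = 0.924).

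Slc7a5, the light chain of a carrier that imports large neutral amino acids, read 8.84, 8.45, 9.22, 8.15 and 8.73 in CBA mice and 8.15, 7.33, 7.78, 7.78 and 7.86 in QSi5 mice. CBA mouse 4 and QSi5 mouse 1 met at 8.15, and the other mice of the strains were apart. Slc7a5 fell by 0.90 (SE 0.20, limma adjusted p = 0.0297). Its call was lost when any of CBA mice 1, 3 and 5 or QSi5 mice 2, 3, 4 and 5 was left out (adjusted p = 0.0508 to 0.0782). The heavy chain that pairs with it, Slc3a2, had a difference of -0.45 (SE 0.16, limma adjusted p = 0.187), with CBA mice between 8.18 and 9.08 and QSi5 mice between 7.93 and 8.05, and Slc38a2, a sodium-coupled carrier of small neutral amino acids, had 0.66 (SE 0.21, limma adjusted p = 0.134).

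Sfxn1, a mitochondrial carrier of serine, was not called on its brightest probe set, at -0.21 (SE 0.13, limma adjusted p = 0.477), but it was on the other, 1417559_at. There it read 4.85, 4.59, 4.91, 4.92 and 4.94 in CBA mice 1 to 5 and 4.10, 3.82, 4.05, 4.05 and 4.18 in QSi5 mice 1 to 5. The strains did not overlap, and this probe set fell by 0.80 (SE 0.11, limma adjusted p = 0.000917). Sptlc1, a subunit of the enzyme that joins serine to palmitate at the start of sphingolipid synthesis, fell by 0.63 (SE 0.15, limma adjusted p = 0.0486) on 1436726_s_at and had -0.08 (SE 0.13, limma adjusted p = 0.824) on its brightest probe set and 0.12 (SE 0.14, limma adjusted p = 0.738) on another.

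Gart, a purine synthesis enzyme that uses folate-bound formyl groups, read 5.92, 5.95, 5.89, 6.10 and 6.03 in CBA mice and 5.60, 5.44, 5.35, 5.74 and 5.64 in QSi5 mice. The strains were apart, and Gart fell by 0.43 (SE 0.10, limma adjusted p = 0.0444) on this probe set and by 0.77 (SE 0.11, limma adjusted p = 0.00235) on another, while its remaining one had -0.11 (SE 0.09, limma adjusted p = 0.639). The call on the brightest was kept without QSi5 mouse 4 and lost without any 1 of the other 9 mice (adjusted p = 0.0555 to 0.129). In lower glycolysis Ldhb, a lactate dehydrogenase subunit, had -0.45 (SE 0.11, limma adjusted p = 0.0426), lost without any of CBA mice 2 to 5 or QSi5 mice 2 to 5 (adjusted p = 0.0562 to 0.112). Its other 3 probe sets had larger negative differences with larger errors and were not called, at -1.02 (SE 0.36, limma adjusted p = 0.195), -0.60 (SE 0.19, limma adjusted p = 0.138) and -0.53 (SE 0.17, limma adjusted p = 0.150).

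Among genes that did not pass, the largest differences by list were those of Alas1, the first enzyme of haem synthesis from glycine, at -0.38 (SE 0.17, limma adjusted p = 0.315), and Aldh1l1, which oxidises formyl folate, at 0.62 (SE 0.22, limma adjusted p = 0.198). The Aldh1l1 difference was 1.03 on the MOE430 2.0 chip and 0.01 on the MOE430A 2.0 chip. Mmadhc, which handles vitamin B12 for methionine synthase, had -0.46 (SE 0.15, limma adjusted p = 0.167), Ddit4, an inhibitor of mTOR signalling, 0.73 (SE 0.27, limma adjusted p = 0.220) and Aldoa, a glycolytic aldolase, 0.24 (SE 0.15, limma adjusted p = 0.496).

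**Figure D5:**
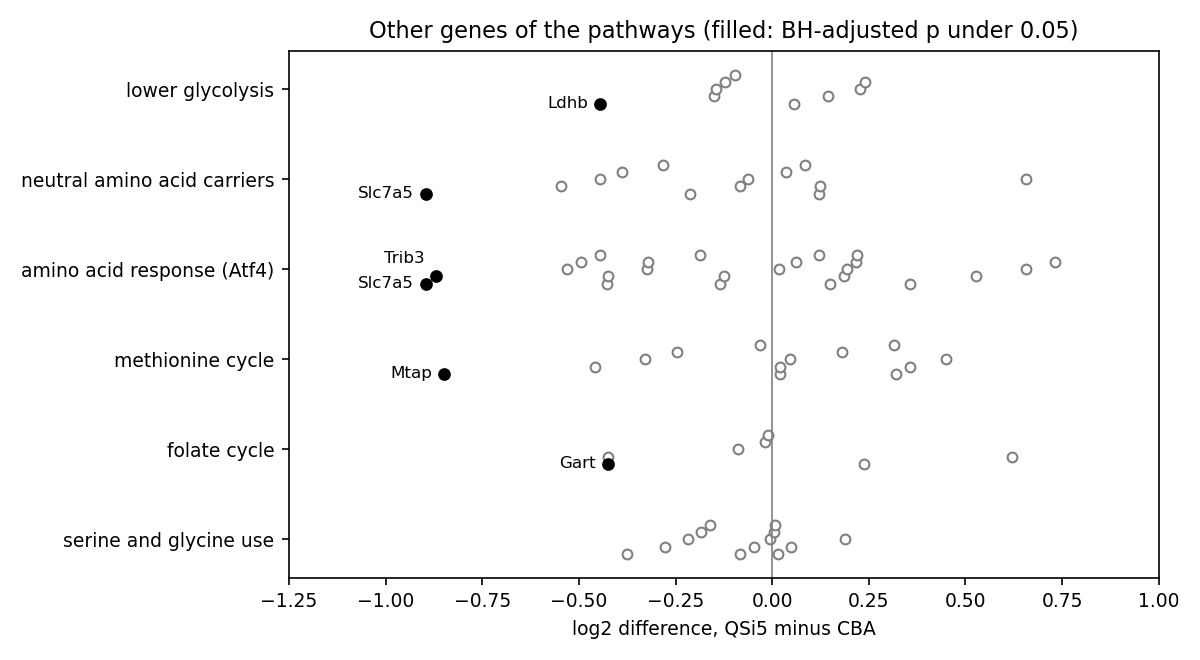
Difference between the strains (horizontal axis, log2, QSi5 minus CBA) of the 76 tested genes of 6 pathway lists (vertical axis), each on its brightest probe set; filled points passed the BH threshold and open ones did not, and genes in 2 lists are drawn in both. The 5 filled genes, from Slc7a5 at -0.90 to Gart at -0.43, all lie left of 0.

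Across the series, 336 of 11412 probe sets were called between the strains, array medians lay between 4.21 and 4.30, and the correlation between arrays across tested probe sets, which are not independent, was 0.910 to 0.988. The defining genes of secretory alveolar cells were all expressed (6 of 6 tested), with mean levels of 13.7 to 13.8 in CBA and 13.8 to 13.9 in QSi5 mice, and no tested marker of any cell type list was called. The smallest adjusted p were those of Lalba, at 0.40 (limma adjusted p = 0.0845), and Fabp4, at -0.73 (limma adjusted p = 0.132). The paper, which also used a looser threshold, lists Lalba as higher in QSi5 mice. The absence of calls does not show that cell makeup was alike. Cd79b of B cells, Oxtr of myoepithelial cells, the endothelial genes Pecam1 and Tie1 and the fibroblast gene Pdgfra did not pass the filter. The mean of 6 leukocyte markers was 7.99 in QSi5 mouse 4 and 5.40 to 6.04 in the other 9 mice. Without QSi5 mouse 4 the difference of Phgdh 1454714_x_at was -3.62. Of 6 adipocyte markers 4 had a probe set, with a mean from 8.11, in CBA mouse 1, to 8.88 in CBA mice and from 8.13 to 8.61 in QSi5 mice. CBA mouse 1 also had the highest mean of the 5 myoepithelial markers, 7.12, beside a lowest value of 6.43 in CBA mice and a range of 6.17 to 7.06 in QSi5 mice. That mouse was lowest on Psat1 1454607_s_at and Slc1a4 1456003_a_at, but on Slc1a4 1423549_at it read 5.46, inside the range of the others. The part of cell makeup in its low values was not tested. The 4 fibroblast markers had means of 5.69 to 6.75 in CBA and 5.79 to 6.77 in QSi5 mice, and the 4 endothelial markers 3.84 to 4.05 and 3.74 to 3.93. Markers of liver, a tissue that also makes serine, were near the filter, with means of 4.53 to 4.96 in CBA and 4.56 to 5.10 in QSi5 mice over 3 genes.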

How the data were processed

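Mammary gland RNA of 5 CBA and 5 QSi5 mice was measured with 1 array per mouse, and the strains and mouse numbers came from the sample records. The deposited values are log2 intensities that the authors computed by RMA (affy package) from the 22690 probe sets common to both chip types; versions are not given in the sources used here. The chip of each mouse was taken from the platform table that holds it, and 0 columns were left unmapped. RMA joins the probes of a set into 1 value, so a probe that behaves differently cannot be seen, and quantile normalization gives all arrays a like distribution. The number of arrays limits the precision. The limma p-values judge a difference in means against the spread between these mice, which limma moderates over all tested probe sets. The permutation p-values compare an r with those of mice reordered within strains.

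Of 22626 probe sets other than 64 controls, 20380 had 1 symbol, 691 several and 1555 were unnamed here. As in the methods, probe sets with a mean above 20 unlogged in at least 1 strain were kept (11412), fitted with limma 3.58.1 in R 4.3.3 (two-sided) and adjusted by Benjamini-Hochberg over all of them at 0.05. The fit was tested on simulated data of the strain comparison with 11412 probe sets. It found 18 of 50 probe sets given a log2 change of 0.5, 39 of 50 given 1, 49 of 50 given 2 and all 50 given 3, and 12 of its 168 calls were false. The simulated noise was normal, with each probe set's within-strain SD, and independent between probe sets and arrays. It held no chip effect and no outlying mouse, so these counts need not hold for the real arrays.

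The members and the gene lists were chosen with earlier results of these data known. Named are all members with all their probe sets, of each list up to 4 called genes and the gene with the largest difference among those not called, and the 5 genes most like Phgdh and Psat1. Slc3a2, Asns, Atf4, Sfxn1 and Sptlc1, and the correlations and SD without CBA mouse 1, were chosen after their values were seen. Motifs were searched on both strands of all RefSeq windows. Alternatives covered the filter, normalization, probe sets with the suffix _x_at or _s_at, the variance model, chip type, a replicate block, the choice of probe set for a gene and each mouse left out in turn.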

Additional observations from a re-analysis of the deposited data

Results flagged for a closer look

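Of 46 groups of 5 mice tested (each strain on each of the 23 probe sets), 1 held a mouse far from the others, where chance gives about 1 in 20. It was QSi5 mouse 3 on Mthfd1 1436704_x_at, at 2.57 on the log2 scale beside 3.14 to 3.34 in the other QSi5 mice. This probe set did not pass the filter, so the value lies among intensities that were not tested.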

How the results depend on the processing

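The difference of Phgdh 1454714_x_at, a description as above, was -3.91 to -3.46 over the 20 alternatives that hold it. The setting without _x_at and _s_at probe sets holds no Phgdh probe set and has 0 members called. All 340 alternative values of the 17 members' differences lay within 1 pooled within-strain SD of those given, a wide margin for small differences. The sign was opposite in 6 of 20 for Mthfd2 1419253_at and 5 of 19 for Shmt2 1434204_x_at. It was opposite in 3 of 21 and 4 of 20 for Mthfd1 1415916_a_at and 1415917_at, and in 2 of 21 for Slc1a4 1456003_a_at. For Shmt1 1425179_at and Psat1 1454607_s_at it was opposite in 1 each, and the other tested probe sets kept their sign. Over all probe sets the strain count was 146 on the MOE430 2.0 arrays alone, 65 on the MOE430A 2.0 arrays alone and 464 with array weights, and 215 to 415 with a mouse left out (215 without QSi5 mouse 3, 221 without QSi5 mouse 5). The 5 called pathway genes became 1 on the MOE430 2.0 arrays, 0 on the MOE430A 2.0 arrays and 2 to 4 with a mouse left out, and rose to 6 with chip type as a block, 6 on the mean of a gene's probe sets and 7 on any probe set of a gene. Mtap kept its call in 20 of 21 alternatives, Trib3 in 19, Slc7a5 in 12 and Gart and Ldhb in 8 each, and the direction of all 5 was unchanged in each. With the replicate block 3 pathway genes were called (Mtap, Trib3 and Slc7a5), with 1 member and 260 probe sets in all. The sample titles number the mice and state no pairing. Deviations of same-numbered mice correlated at -0.25, 0.29, -0.37, 0.06 and 0.02. These values come from probe sets that are not independent and have no reference, so they cannot decide whether the numbers pair the mice. For chip type the count of 60 became 16 without _x_at and _s_at probe sets, 136 with array weights and 0 to 137 with a mouse left out (0 without CBA mouse 2, 137 without QSi5 mouse 5), and 1 member was called with array weights and 0 with any mouse left out. Of the member pairs 1 passed after a second quantile normalization (Phgdh and Mthfd2, r = 0.90), 1 without _x_at and _s_at probe sets (Psat1 and Psph, 0.86), 2 with chip types centred (Psat1 and Psph, 0.93, and Shmt1 and Slc1a4, -0.78), 2 on the mean of all probe sets of a gene (Mthfd1 and Slc1a4, 0.86, and Phgdh and Slc1a4, 0.78) and 0 with any mouse left out. The cause of these changes was not tested. With chip types centred, mice were still reordered across the chip types of a strain, so the permutation p behind those 2 passes is not exact. Settings with fewer mice also had fewer arrays to judge by.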
